A study of Mus musculus with 6 samples.

Results

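The genes described here are 10 immediate-early genes outside the AP-1 family: Egr1, Egr2, Egr3, Nr4a1, Nr4a2, Nr4a3, Myc, Ier2, Ier3 and Ier5. They were chosen by gene symbol and were 10 of 53379 gene identifiers in the count tables. All 10 passed the filter on low counts, which left 20475 genes. The RNA came from sorted Tregs (regulatory T cells, a CD4+ lineage defined by the factor FOXP3 that holds other immune cells in check) of C57BL/6 mice aged 3 months. In the 3 KO libraries the genotype was Foxp3YFP-CrexJunbFlox/Flox, so that Cre made under Foxp3 acts on floxed Junb in Tregs. In the 3 WT libraries it was Foxp3YFP-CrexJunb+/+, so the WT mice carried the Cre allele too. JunB belongs to the AP-1 family of transcription factors, and the comparison asked how its loss in Tregs alters their gene expression. The labels give neither a sorting gate, a treatment after sorting, nor the number of animals behind a library.

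Immediate-early genes are transcribed within minutes of a signal from existing transcription factors, before any new protein is made. In T cells the T cell receptor induces them through calcium, ERK and NF-kappaB signalling. EGR proteins are zinc finger transcription factors, NR4A proteins are nuclear receptors that act without a known natural ligand, and MYC drives growth and ribosome production. NR4A factors are needed for Treg development and function in mice, and Nr4a1, whose product is also called Nur77, is widely used as a reporter of T cell receptor signals. IER proteins are less uniform: they are named for early induction and are not all one protein family.

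The promoters of the 3 Nr4a genes are shown because they share a sequence feature that the choice of genes did not use. Each window of 300 bases around the RefSeq start site (250 before it, 50 after) held 4 copies of TGACG, the core of the cAMP response element that CREB binds, counted on both strands. At least 4 copies were found in 0.231% of 32851 promoter windows in the same RefSeq table (GRCm38.p6), and at least 1 copy in 20.8%. This motif was singled out from those searched, and the cut of 4 copies set, with these windows seen. The 0.231% is therefore a description and not a test of rarity. The bases ahead of the annotated exon are printed below, 5′ to 3′ on the strand of the gene. For Nr4a1 that exon lies inside the gene, whose longest transcript starts farther upstream in GENCODE, so the stretch is intronic for that one. Capitals mark TGACG or its complement, and the EGR-type motif GCGNGGGCG or its complement. They cover chr15:101266596-101266845 on the plus strand for Nr4a1, chr2:57124004-57124253 on the minus strand for Nr4a2, and chr4:48045055-48045152 on the plus strand for Nr4a3. For Nr4a3, 3 of the 4 copies fall in the printed stretch.
Nr4a1: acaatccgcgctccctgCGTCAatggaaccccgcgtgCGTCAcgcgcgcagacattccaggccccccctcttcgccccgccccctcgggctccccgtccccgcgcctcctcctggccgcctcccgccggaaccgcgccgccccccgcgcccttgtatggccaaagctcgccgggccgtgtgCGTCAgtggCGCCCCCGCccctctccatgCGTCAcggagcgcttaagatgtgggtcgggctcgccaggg
Nr4a2: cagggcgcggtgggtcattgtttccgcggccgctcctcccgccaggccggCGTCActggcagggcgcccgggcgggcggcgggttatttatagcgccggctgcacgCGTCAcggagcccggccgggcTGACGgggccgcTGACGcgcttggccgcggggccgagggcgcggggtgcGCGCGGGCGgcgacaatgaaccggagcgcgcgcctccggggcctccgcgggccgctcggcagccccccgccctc
Nr4a3: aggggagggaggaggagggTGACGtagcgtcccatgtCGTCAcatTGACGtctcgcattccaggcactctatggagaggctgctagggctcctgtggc

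Of the 10 genes, 6 had a window in that table: Egr2, Nr4a1, Nr4a2, Nr4a3, Ier3 and Ier5. Egr1, Egr3, Myc and Ier2 had none and were not searched. Egr2 had 5 windows there, and only the 1 nearest its GENCODE gene start was searched. TGACG was in 3 of the 6, the Nr4a genes. GCGNGGGCG was in the windows of Nr4a1 and Nr4a2, against 5.55% of all windows. The MYC-type E-box CACGTG was in that of Egr2, against 7.15%. The AP-1 motif TGANTCA (7.81% of all windows), the full cAMP response element TGACGTCA (1.79%, and each copy also holds TGACG), the NR4A motif AAAGGTCA (1.51%) and the CArG box of SRF (1.63%) were in 0 of the 6 windows. A match is a run of letters, and these windows do not cover enhancers or sites farther away.

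Library totals were 33784183 to 41231173 counts. Junb itself had 57.1, 57.3 and 49.6 CPM (counts scaled to the library size, with TMM factors) in KO replicates 1 to 3, against 87.1, 77.5 and 89.5 CPM in WT replicates 1 to 3, a fold of 0.645. Every KO value was below every WT value, as for 4.07% of all genes, though Prdx2 overlaps Junb on the other strand. The edgeR p of Junb was 0.00163 before and 0.9999 after adjustment over all genes tested. Summed CPM of 12 Treg markers was 1266, 2160 and 2898 in KO replicates 1 to 3, against 2667 to 3056 in the WT libraries, and KO replicate 1 stood apart. Of these markers 11 had lower means in KO (median log2 difference -0.44), against 49.1% of all genes tested. The libraries did not overlap for 2 of them, both with KO below WT, where 4.07% of all genes did so. How far this bears on the 10 genes was not tested. The 8 general T cell markers, 7 of them with lower means in KO, summed to 3767 to 4390 CPM in KO and 4257 to 5379 CPM in WT. The libraries did not overlap for 1 of the 8, with KO below WT, against 4.07% of all genes. Each Treg and T cell marker had counts in every library. B cell markers (12 genes, 11 with higher means in KO) summed to 2920 to 6454 CPM in KO and to 1945 to 8655 CPM in WT, and WT replicate 2 was the highest of all. Myeloid markers (12 genes, 11 higher) ran from 457 to 1215 CPM in KO and from 146 to 1109 CPM in WT. Conventional CD4 T cell markers (10 genes, 9 higher) ran from 1604 to 2526 CPM in KO and from 1479 to 1951 CPM in WT. The libraries did not overlap for 2 of these 10, both with KO above WT, where 3.68% of all genes did so. Plasma cell markers (7 genes, 5 higher) ran from 562 to 1669 CPM in KO and from 299.7 to 1912 CPM in WT, and CD8 T and NK cell markers (10 genes, 9 higher) from 130.3 to 224 CPM in KO and from 88.3 to 187 CPM in WT. Erythroid cell and platelet markers (9 genes, 8 tested, 7 of these higher) ran from 78.9 to 7673 CPM in KO and from 110.6 to 2770 CPM in WT. No marker was at 0 in all 6 libraries. KO replicate 2 and WT replicate 2 were closer to each other than either was to any library of its own genotype. A number in the names of the count tables splits the libraries into set A (KO replicate 2, WT replicates 1 and 2) and set B (KO replicates 1 and 3, WT replicate 3).

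Of the 10 genes, 8 had a lower mean in KO than in WT and 2, Myc and Ier3, a higher one. The median log2 difference was -0.41, where it was 0.0055 over all genes tested and 49.1% of them were lower. By edgeR 0 of the 10 passed the threshold of 0.05 on the adjusted p, as did 0 of all 20475 genes (0%). Egr1 had an unadjusted edgeR p under 0.05, 1 of 10 against 2.88% of all genes. DESeq2 called 0 of the 10 and 0.176% of all genes, and limma-voom called 0 genes. The KO and WT libraries did not overlap for 3 of the 10 (7.76% of all genes): Egr1 with KO below WT (4.07% of all genes), and Myc and Ier3 with KO above WT (3.68%). In bulk RNA of this kind, fewer cells that express a gene and less RNA per cell cannot be told apart. Without KO replicate 1 the split of the means was again 8 lower and 2 higher, with 0 of the 10 at an unadjusted edgeR p under 0.05 (2.95% of all genes). Without WT replicate 2 the split was 8 and 2 as well, with 4 such genes (Egr1, Egr3, Nr4a3 and Myc), and the share over all genes was then 5.15%.

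**Figure D1:**
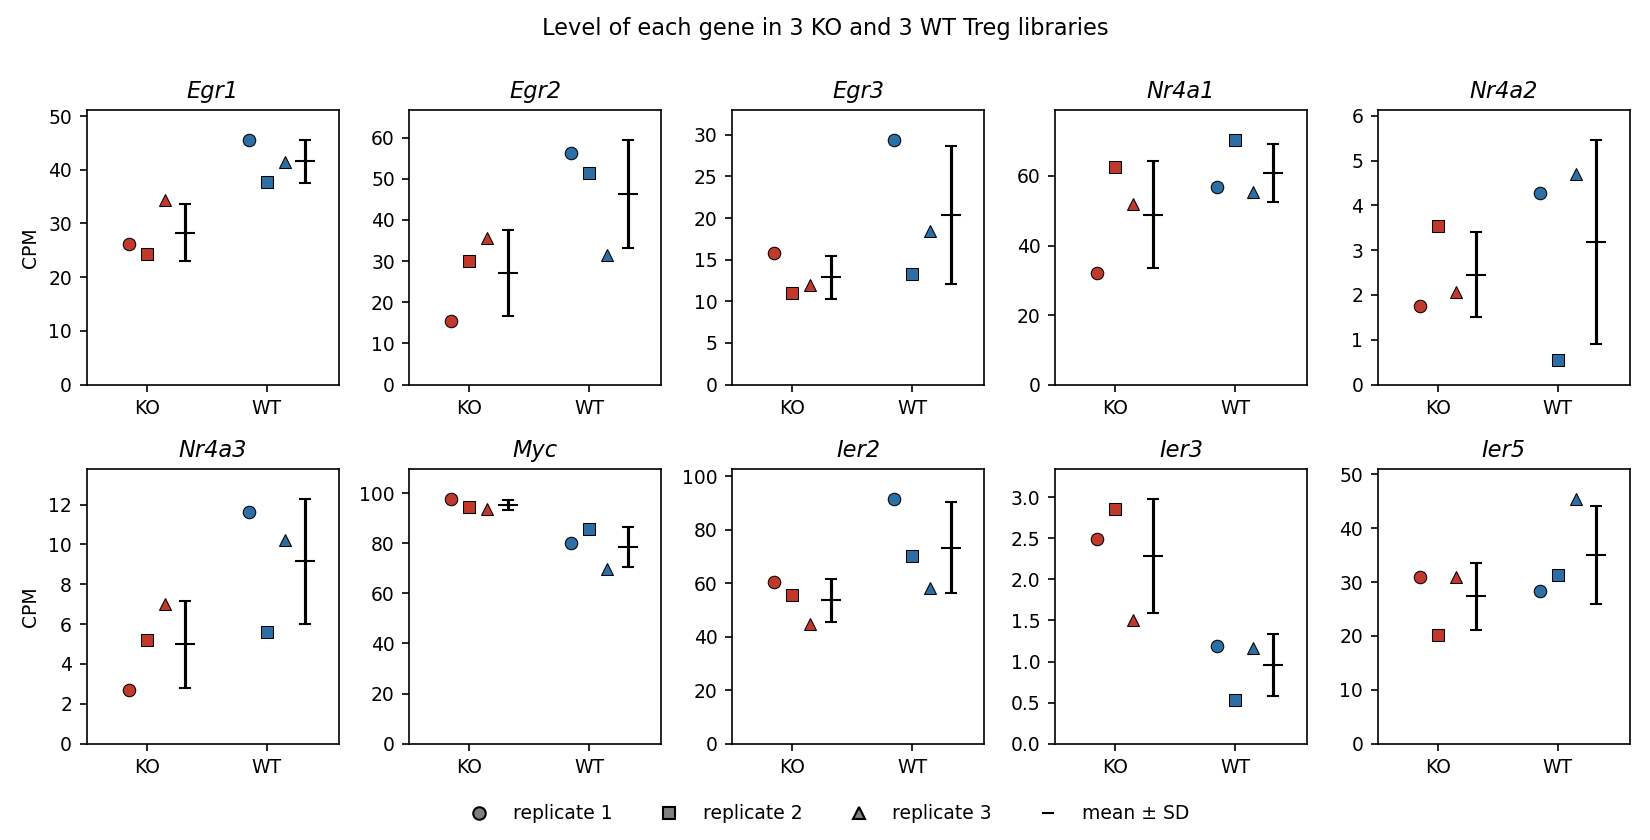
CPM of each of the 10 genes (vertical axes, linear and starting at 0) in the 3 KO libraries (red, left) and the 3 WT libraries (blue, right); symbols give the replicate and the bars the mean ± SD. The groups do not overlap for Egr1, Myc and Ier3, and WT replicate 2 is the lowest of the 6 libraries for Nr4a2 at 0.555 CPM.

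All 3 EGR genes had lower means in KO, and Egr1 was the only one of them whose genotypes did not overlap. Egr1 (ENSMUSG00000038418.7, chromosome 18, 34859823 to 34864984, plus strand, GRCm38) encodes a zinc finger factor that ERK signalling induces through SRF and its partners. Egr1 had 26.2, 24.4 and 34.3 CPM in KO replicates 1 to 3, against 45.6, 37.6 and 41.5 CPM in WT replicates 1 to 3. The KO values all lay under the WT values, but KO replicate 3 and WT replicate 2 were close. Their 95% counting intervals, 32.4 to 36.2 CPM in KO replicate 3 and 35.6 to 39.8 CPM in WT replicate 2, overlapped. The means were 28.3 ± 5.29 CPM in KO and 41.6 ± 3.98 CPM in WT (SD, n = 3 each, as for all means given), a log2 difference of -0.56 (SE 0.18). The edgeR p was 0.0198 before and 0.9999 after adjustment, and an exact two-sided permutation test gave 0.1, the lowest p possible with 3 libraries in each group. The unadjusted edgeR p was no longer under 0.05 without KO replicate 1 (0.0554), without KO replicate 2 (0.0613) or without WT replicate 1 (0.0716).

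Egr2 (ENSMUSG00000037868.15, chromosome 10, 67535475 to 67542188, plus strand) encodes a factor that in mice restrains T cell activation together with Egr3. Egr2 had 15.3, 30.1 and 35.7 CPM in KO replicates 1 to 3, against 56.2, 51.5 and 31.5 CPM in WT replicates 1 to 3. WT replicates 1 and 2 were the highest and KO replicate 1 by far the lowest, while KO replicate 3 lay above WT replicate 3. The log2 difference was -0.78 (SE 0.36, edgeR p = 0.0654, adjusted p = 0.9999, exact permutation p = 0.2), with means of 27.0 ± 10.5 CPM in KO and 46.4 ± 13.1 CPM in WT. It was -0.50 without KO replicate 1, the library with the lowest Treg marker sum. How far that sum bears on Egr2 was not tested.

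Egr3 (ENSMUSG00000033730.4, chromosome 14, 70077203 to 70082614, plus strand) was the least abundant of the 3. Egr3 had 15.8, 10.97 and 11.9 CPM in KO replicates 1 to 3, against 29.4, 13.3 and 18.4 CPM in WT replicates 1 to 3. WT replicate 1 stood well above the rest, and KO replicate 1 lay above WT replicate 2. KO minus WT on the log2 scale was -0.66 (SE 0.33, edgeR p = 0.0899, adjusted p = 0.9999, exact permutation p = 0.2). It was -0.30 without WT replicate 1, so that library carried much of it. Within set A the differences in mean log2 CPM were -0.76 for Egr1, -0.84 for Egr2 and -0.85 for Egr3, and within set B they were -0.47, -0.43 and -0.42 in the same order. All 3 EGR genes had lower means in KO in both sets, but the sets are not replicates. KO is KO replicate 2 alone in set A, and WT is WT replicate 3 alone in set B. Within set B, Egr2 was higher in KO replicate 3 (35.7 CPM) than in WT replicate 3 (31.5 CPM).

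Summed per kilobase of exon, the EGR genes had 13.9, 16.8 and 20.9 CPM per kb in KO replicates 1 to 3, against 33.4, 26.6 and 22.7 CPM per kb in WT replicates 1 to 3. Egr2 made up 32.4%, 52.8% and 50.4% of this sum in KO replicates 1 to 3, and 49.5%, 57.0% and 40.8% in WT replicates 1 to 3. The mean shares of Egr1, Egr2 and Egr3 were 37.0%, 45.2% and 17.8% in KO and 34.3%, 49.1% and 16.6% in WT. The shares overlapped between the genotypes (exact two-sided permutation p between 0.5 and 0.8, where 0.1 is the lowest possible). Egr2 was the largest share except in KO replicate 1, where Egr1 had 41.9%, and in WT replicate 3 it was level with Egr1, both at 40.8%.

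**Figure D2:**
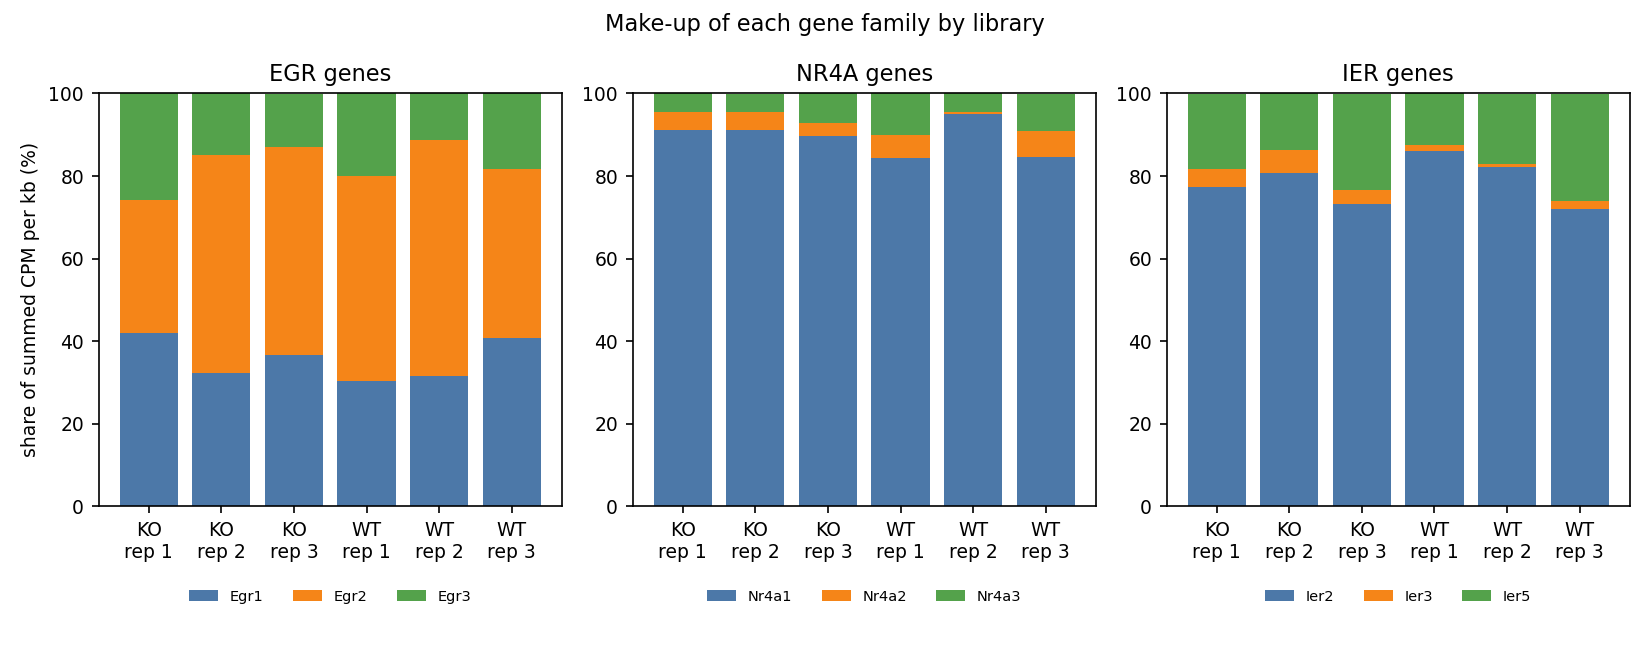
Share of each gene in the summed CPM per kilobase of exon of its family (vertical axis, %), for the EGR, NR4A and IER genes, with 1 bar for each library, KO on the left and WT on the right. Nr4a1 makes up 84.4% or more of the NR4A sum in each library, and Egr2 is 32.4% of the EGR sum in KO replicate 1.

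The NR4A genes also had lower means in KO, with more spread between libraries. Nr4a1 (ENSMUSG00000023034.6, chromosome 15, 101254269 to 101274795, plus strand) was the most abundant of them. Nr4a1 had 32.1, 62.7 and 51.9 CPM in KO replicates 1 to 3, against 56.7, 70.4 and 55.4 CPM in WT replicates 1 to 3. KO replicate 1 was far below the other 5 libraries, and KO replicate 2 was above WT replicates 1 and 3. The log2 difference was -0.32 (SE 0.25, edgeR p = 0.255, adjusted p = 0.9999, exact permutation p = 0.4). It was -0.090 without KO replicate 1, and -0.20 without WT replicate 2. Within set A it was -0.011, and within set B, which holds KO replicate 1, it was -0.44.

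Nr4a3 (ENSMUSG00000028341.9, chromosome 4, 48045153 to 48086447, plus strand) encodes the receptor also called NOR1. Nr4a3 had 2.68, 5.23 and 7.03 CPM in KO replicates 1 to 3, against 11.6, 5.61 and 10.2 CPM in WT replicates 1 to 3. WT replicates 1 and 3 were the highest, and KO replicate 3 lay above WT replicate 2. The log2 difference, -0.88 (SE 0.46, edgeR p = 0.0957, adjusted p = 0.9999, exact permutation p = 0.2), was the lowest of the 10 genes. Leaving out KO replicate 1 gave -0.58 and leaving out WT replicate 2 gave -1.13, and the difference was -0.62 within set A and -1.22 within set B.

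Nr4a2 (ENSMUSG00000026826.13, chromosome 2, 57106830 to 57124003, minus strand), the gene of the receptor NURR1, had no stable direction. Nr4a2 had 1.75, 3.54 and 2.08 CPM in KO replicates 1 to 3, against 4.28, 0.555 and 4.71 CPM in WT replicates 1 to 3. WT replicate 2 had only 19 counts (95% counting interval 0.334 to 0.867 CPM), against 66 to 190 counts in the other 5 libraries, and its interval met that of no other library. The WT libraries thus held both the highest values and the lowest one. The log2 difference was -0.37 (SE 0.77, edgeR p = 0.642, adjusted p = 0.9999, exact permutation p = 1.0). Leaving out WT replicate 2 gave -0.87 and leaving out WT replicate 3 gave 0.024, and the difference was 1.15 within set A, which holds WT replicate 2, and -1.28 within set B. WT replicate 2 also had the highest B cell marker sum, and a bearing of that on Nr4a2 was not tested.

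Per kilobase of exon, Nr4a1 made up 89.8% to 91.2% of the NR4A sum in KO libraries and 84.4% to 94.9% in WT libraries. Nr4a3 made up 4.45% to 7.13% in KO and 4.43% to 10.1% in WT, and Nr4a2 3.10% to 4.45% in KO and 0.646% to 6.22% in WT. Each KO range lay within the WT range. The promoters printed above thus belong to genes whose levels per length differ by more than 10 times, at a mean of 13.9 ± 4.42 CPM per kb for Nr4a1 and 0.605 ± 0.235 for Nr4a2 in KO, and of 17.3 ± 2.37 and 0.784 ± 0.563 in WT.

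Myc, which encodes the growth-promoting MYC factor, ran the other way from the EGR and NR4A genes. Myc (ENSMUSG00000022346.15, chromosome 15, 61985391 to 61990374, plus strand) had 97.7, 94.4 and 93.6 CPM in KO replicates 1 to 3, against 80.1, 85.7 and 69.7 CPM in WT replicates 1 to 3. Every KO library lay above every WT library, and the KO libraries were close together. The 95% counting intervals of the nearest libraries, 90.6 to 96.8 CPM in KO replicate 3 and 82.6 to 88.8 CPM in WT replicate 2, did not overlap. The means were 95.2 ± 2.16 CPM in KO and 78.5 ± 8.12 CPM in WT, a log2 difference of 0.28 (SE 0.12) or a fold of 1.21. The edgeR p was 0.0560 before and 0.9999 after adjustment, and the exact permutation p was 0.1. The difference was 0.19 within set A and 0.46 within set B. Leaving out KO replicate 1 gave 0.26 and leaving out WT replicate 3 gave 0.20.

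The IER genes did not share a direction. Ier2 (ENSMUSG00000053560.4, chromosome 8, 84661331 to 84662852, minus strand) is a single-exon gene of a nuclear protein. Ier2 had 60.4, 55.8 and 44.8 CPM in KO replicates 1 to 3, against 91.6, 70.4 and 58.1 CPM in WT replicates 1 to 3. WT replicates 1 and 2 were above all KO libraries, and KO replicate 1 was above WT replicate 3. Ier2 had a log2 difference of -0.45 (SE 0.21, edgeR p = 0.0642, adjusted p = 0.9999, exact permutation p = 0.2). It was -0.26 without WT replicate 1, -0.53 within set A and -0.16 within set B.

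Ier5 (ENSMUSG00000056708.5, chromosome 1, 155096361 to 155099636, minus strand) encodes a protein that in human cells activates the heat shock factor HSF1. Ier5 had 31.0, 20.2 and 30.9 CPM in KO replicates 1 to 3, against 28.3, 31.3 and 45.4 CPM in WT replicates 1 to 3. WT replicate 3 was the highest and KO replicate 2 the lowest, and the other 4 libraries lay within 28.3 to 31.3 CPM. For Ier5 the log2 difference was -0.36 (SE 0.26, edgeR p = 0.210, adjusted p = 0.9999, exact permutation p = 0.4). Leaving out WT replicate 3 gave -0.13 and leaving out KO replicate 2 gave -0.18, and the difference was -0.56 within set A and -0.55 within set B.

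Ier3 (ENSMUSG00000003541.6, chromosome 17, 35821684 to 35822923, plus strand), also called IEX-1, encodes a stress-induced protein that modulates cell survival. Ier3 had 2.49, 2.86 and 1.51 CPM in KO replicates 1 to 3, against 1.19, 0.526 and 1.16 CPM in WT replicates 1 to 3. No KO library reached down to the WT range. These values rest on 56 to 100 counts in KO and 18 to 47 in WT, and the 95% counting intervals of KO replicate 3 (1.14 to 1.96 CPM) and WT replicate 1 (0.851 to 1.61 CPM) overlapped. The log2 difference was 1.25 (SE 0.57), a fold of 2.38, with an edgeR p of 0.0643 before and 0.9999 after adjustment and an exact permutation p of 0.1. It was 1.18 without KO replicate 1, 0.96 without WT replicate 2, 1.78 within set A and 0.71 within set B. Ier3 made up 4.39% ± 1.13 of the IER sum per kilobase in KO and 1.42% ± 0.561 in WT, and its share in every KO library was above that in every WT library. Ier3 has RNA in myeloid and other cells too. Summed myeloid markers were 908, 1215 and 457 CPM in KO replicates 1 to 3 and 306, 1109 and 146 CPM in WT replicates 1 to 3. The part of these cells in the Ier3 values was not tested.

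**Figure D3:**
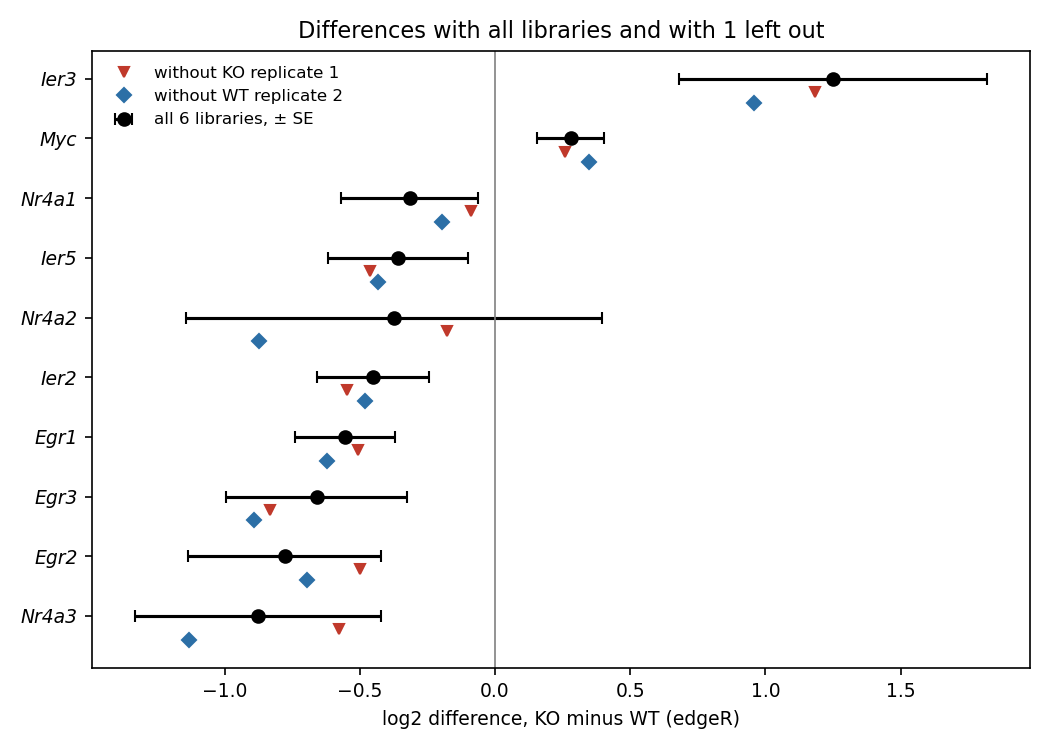
Log2 difference of each gene, KO minus WT (horizontal axis), from edgeR with all 6 libraries (black, ± SE), without KO replicate 1 (red) and without WT replicate 2 (blue). Nr4a1 moves from -0.32 to -0.090 without KO replicate 1, Nr4a2 from -0.37 to -0.87 without WT replicate 2, and Myc and Ier3 stay above 0 in each of the 3 fits.

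Across all 6 libraries the order of the 10 genes by mean CPM per kilobase of exon was Ier2, Myc, Nr4a1, Egr2, Ier5, Egr1, Egr3, Ier3, Nr4a3 and Nr4a2. The step between Myc (31.97 CPM per kb) and Nr4a1 (15.6) was the only one at which the ranges of the neighbours did not overlap. Ier2 was above Myc in 5 of the 6 libraries, with Myc ahead in 1 KO library. In KO the means of Ier2 and Myc were 35.3 ± 5.29 and 35.1 ± 0.794 CPM per kb, and in WT they were 48.2 ± 11.1 and 28.9 ± 2.99 CPM per kb. Ier3 was above Nr4a3 in 3 of 3 KO libraries and in 0 of 3 WT libraries, the only neighbours whose order was opposite in all libraries of the 2 genotypes. These 2 pairs were picked after their values were seen.

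The libraries also differed in which genes were at their extremes. WT replicate 1 had the highest level of 5 genes (Egr1, Egr2, Egr3, Nr4a3 and Ier2) and the lowest of 0. KO replicate 1 had the lowest level of Egr2, Nr4a1 and Nr4a3 and the highest of Myc, and KO replicate 2 had the lowest of Egr1, Egr3 and Ier5 and the highest of Ier3. WT replicate 2 had the highest Nr4a1 and the lowest Nr4a2 and Ier3, and WT replicate 3 the highest Nr4a2 and Ier5 and the lowest Myc.

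**Figure D4:**
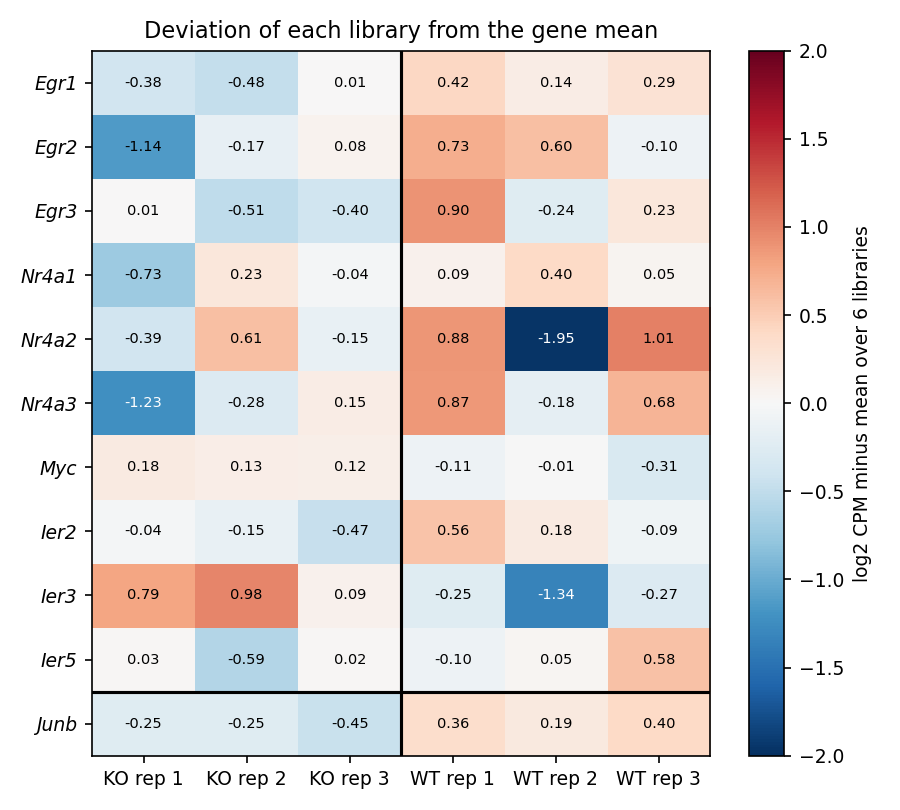
Log2 CPM of each gene in each library (columns, KO on the left, WT on the right) minus its mean over the 6 libraries; red is above the mean and blue below, and Junb is the bottom row. Egr2 at -1.14, Nr4a1 at -0.73 and Nr4a3 at -1.23 are lowest in KO replicate 1, while Nr4a2 at -1.95 is lowest in WT replicate 2.

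Likeness of pattern was measured as the root mean square difference of log2 CPM over the 6 libraries after each gene was centred on its mean. Of the 45 pairs among the 10 genes, Egr3 and Ier2 were the most alike at 0.30, followed by Egr1 and Ier5 at 0.30, Egr1 and Ier2 at 0.32, and Egr1 and Egr3 at 0.34. The median was 0.65 for the 9 pairs within a family and 0.64 for the 36 pairs across families. Of the Nr4a genes, whose windows each held 4 TGACG copies, Nr4a1 and Nr4a3 were 0.56 apart. Nr4a2 and Nr4a3 were 0.90 apart, and Nr4a1 and Nr4a2 1.11. All points share the same 6 libraries.

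Among 10202 genes with a mean of at least 10 CPM, those most like the most abundant gene of each family were named. For Egr2 they were Myo1e, an unconventional myosin (distance 0.15), Rgs1, a regulator of G protein signalling (0.16), and Il2ra, the high-affinity IL-2 receptor chain that Tregs carry (0.19). Their means were 26.0, 96.5 and 120.7 CPM in KO and 38.4, 145 and 170.4 CPM in WT. For Nr4a1 they were Slc4a1ap, Snx11 and Tor4a (0.081, 0.087 and 0.087), with log2 differences of -0.25, -0.31 and -0.28. For Myc they were Bccip, Tubgcp5 and Hprt, the purine salvage enzyme (0.041, 0.045 and 0.046), with log2 differences of 0.27, 0.22 and 0.23. For Ier2 they were Pom121, a nuclear pore protein, Meaf6 and Mccc1 (0.079, 0.090 and 0.10), with log2 differences of -0.38, -0.44 and -0.36. A gene that varies little, such as Myc, finds near neighbours more easily. The distance covers KO and WT libraries alike, so log2 differences near that of the member follow from how these genes were picked.

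The other early response genes of T cells had mostly lower means in KO, like the EGR and NR4A genes. Of 39 such genes, which include AP-1 subunits but none of the 10 and not Junb, 32 had lower and 7 higher means (median log2 difference -0.29), against 49.1% lower over all genes. This list, like the others below, was chosen with earlier results of these data known. Its counts are therefore a description and not independent support. By edgeR 0 passed in either direction, and 5 of 39 had an unadjusted p under 0.05, against 2.88% of all genes. The libraries did not overlap for 8 of them, all with KO below WT, where 4.07% of all genes did so. Fos, an AP-1 partner of the Jun proteins, had 14.3, 9.62 and 15.9 CPM in KO replicates 1 to 3, against 21.7, 28.5 and 39.6 CPM in WT replicates 1 to 3 (log2 difference -1.17, SE 0.30). Gadd45b, a stress response gene, averaged 19.5 ± 3.11 CPM in KO and 32.1 ± 4.90 CPM in WT. Tnfaip3, which encodes the NF-kappaB inhibitor A20, averaged 22.9 ± 5.89 CPM in KO and 37.1 ± 5.66 CPM in WT. Cd83, a surface protein of activated lymphocytes, averaged 110.4 ± 22.6 CPM in KO and 160.2 ± 15.5 CPM in WT. The others were Jun (log2 difference -0.67), Nfkbiz (-0.46), Nfkbia (-0.28) and Zfp36l1 (-0.26), and the last 2 were also the most abundant of the list. Without KO replicate 1, 28 of the 39 had lower means (median -0.19), where 51.5% of all genes did, and without WT replicate 2, 31 did (median -0.31).

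Factors that act on immediate-early promoters numbered 17 (SRF and its partners, CREB, MEF2 and NFAT factors and coactivators). Of these, 11 had lower and 6 higher means, against 49.1% lower over all genes. The median log2 difference was -0.11, -0.011 without KO replicate 2 and -0.17 without KO replicate 3. By edgeR 0 passed in either direction, and 1 of the 17, Nfatc1, had an unadjusted p under 0.05, against 2.88% of all genes. The libraries did not overlap for 2 of the 17, both with KO below WT, against 4.07% of all genes. Nfatc1, a calcium-dependent factor of T cell receptor signalling, averaged 125.9 ± 3.78 CPM in KO and 151 ± 12.3 CPM in WT without overlap (log2 difference -0.26, edgeR adjusted p = 0.9999). Mef2d averaged 54.9 ± 3.90 CPM in KO and 60.4 ± 1.41 CPM in WT, also without overlap. Elk4, an SRF partner, was the other abundant one, at 83.5 ± 14.5 CPM in KO and 92.5 ± 16.6 CPM in WT with overlapping libraries.

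Among partners and repressors of EGR, MYC and NR4A proteins, 13 of 17 genes passed the filter. Of these, 7 had lower and 6 higher means, against 49.1% lower over all genes. Their median log2 difference was -0.10, and 0.056 without WT replicate 3, and 0 passed by edgeR in either direction. Unadjusted, 0 of the 13 had an edgeR p under 0.05, against 2.88% of all genes. The libraries did not overlap for Nab2, with KO below WT, and for Mlx, with KO above WT. That was 1 of 13 each way, against 4.07% and 3.68% of all genes. Egr4, the other EGR gene, had 0 counts in all 6 libraries, which allows up to 0.0876 CPM (3 counts) in the shallowest of them. Nab2, a corepressor that EGR proteins both induce and bind, had 12.5, 14.5 and 16.2 CPM in KO replicates 1 to 3, against 24.6, 17.1 and 20.1 CPM in WT replicates 1 to 3. Its log2 difference was -0.52 (SE 0.23, edgeR adjusted p = 0.9999), and the KO values all lay under the WT values. Nab2 overlaps Stat6, which runs the other way, so its value is uncertain. Mlx, a partner of MondoA and MAD proteins in the extended MYC network, averaged 39.0 ± 3.51 CPM in KO and 31.9 ± 3.65 CPM in WT without overlap, and it overlaps Psmc3ip. The most abundant, Mxd4 (98.4 ± 24.9 CPM in KO, 109 ± 21.8 CPM in WT) and Mga (68.0 ± 5.29 CPM in KO, 63.4 ± 4.85 CPM in WT), overlapped between genotypes.

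Downstream genes gave no uniform direction. Of 15 EGR target genes of T cells, 9 had lower and 6 higher means (median log2 difference -0.32), against 49.1% lower over all genes. By edgeR 0 of the 15 passed in either direction, and 1 of them had an unadjusted p under 0.05, against 2.88% of all genes. The median was between -0.33 and -0.0087 with 1 library left out, with -0.13 when KO replicate 1 was left out, -0.14 when KO replicate 2 was, -0.16 when WT replicate 1 was and -0.0087 when WT replicate 3 was. The libraries did not overlap for Fasl, with KO above WT, and for Nab2, which this list holds too, 2 of 15 against 7.76% of all genes in either direction. Dgka and Dgkz, diacylglycerol kinases that dampen T cell receptor signals, averaged 480.4 ± 37.5 and 138 ± 35.5 CPM in KO and 437 ± 71.3 and 154 ± 30.3 CPM in WT. Fasl, the death ligand that EGR factors induce, had 10.3, 14.3 and 10.7 CPM in KO replicates 1 to 3, against 7.40, 7.71 and 2.06 CPM in WT replicates 1 to 3. Its log2 difference was 1.04 (SE 0.50, edgeR adjusted p = 0.9999), and CD8 T and NK cell markers, which go with cells that also make Fasl, had higher means in KO for 9 of 10 genes. Their part in it was not tested.

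Of 25 MYC target genes, 13 had higher and 12 lower means in KO, with a median log2 difference of 0.012 beside 0.0055 over all genes. By edgeR 0 of the 25 passed in either direction, and 0 had an unadjusted p under 0.05, against 2.88% of all genes. The libraries did not overlap for Ncl (396 ± 17.3 CPM in KO, 348 ± 13.9 CPM in WT) and Mybbp1a (87.3 ± 9.32 CPM in KO, 72.0 ± 3.98 CPM in WT), nucleolar proteins of ribosome production, both with KO above WT. That was 2 of 25, against 3.68% of all genes. Npm1, another nucleolar protein, averaged 547 ± 15.4 CPM in KO and 518 ± 20.3 CPM in WT, and Ldha, the lactate dehydrogenase subunit, 404 ± 27.3 CPM in KO and 429 ± 31.0 CPM in WT. Without KO replicate 1, 17 of the 25 had lower means (median -0.049), and without WT replicate 3, 8 did (median 0.047).

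**Figure D5:**
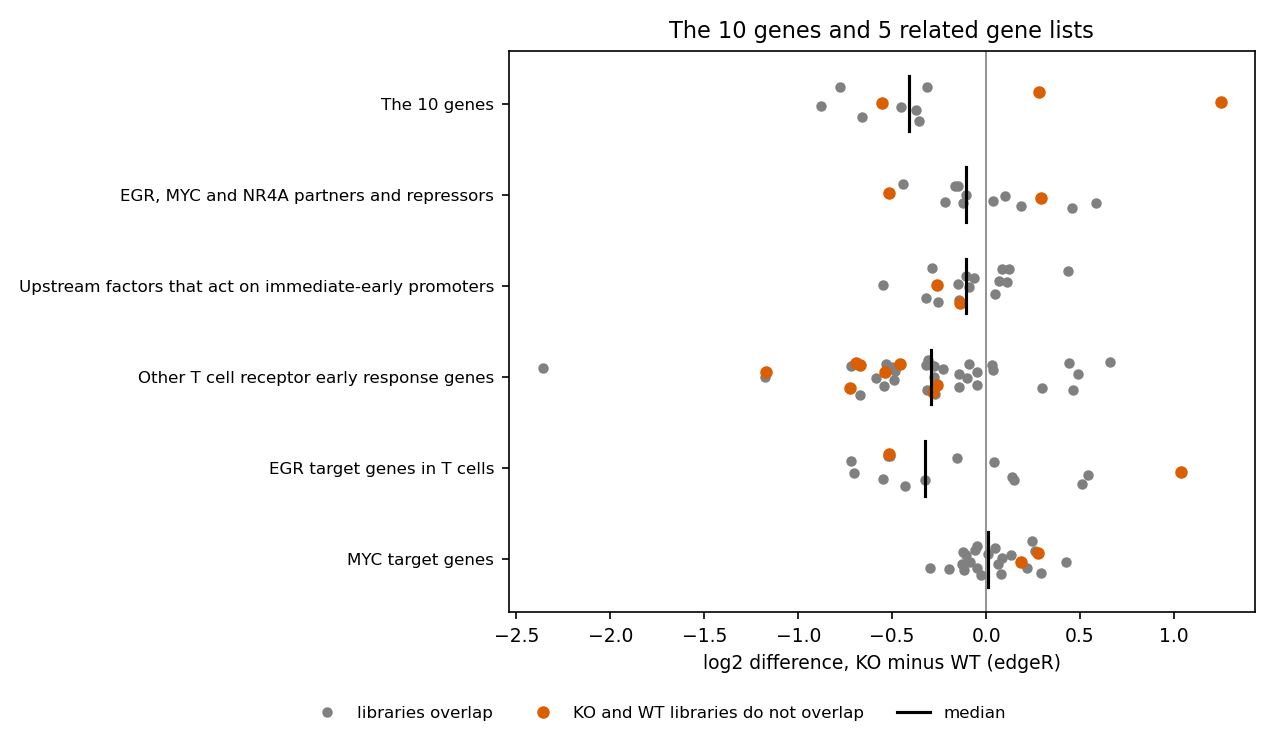
Log2 difference, KO minus WT (horizontal axis, edgeR), of the 10 genes and of the genes of 5 related lists, 1 point per gene, with the median as a black bar and genes without overlap between KO and WT libraries in orange. The medians are -0.41 for the 10 genes, -0.29 for the other early response genes and 0.012 for MYC target genes.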

How the data were processed

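The authors deposited raw read counts per Ensembl gene, 1 table for each library. The submitters' processing notes name the build mm10 and the tools featureCounts, STAR (2.3) and bcl2fastq (2.19.0.316). Per the labels' protocols, libraries were made with a SMARTer ultra-low-input kit and read as single reads of 50 bases. Whether strand was used in counting, and which annotation, is not stated in the sources used, so values of the 18 of 45 named genes that overlap another annotated gene are uncertain; 0 of the 10 members do. Symbols, positions and exon lengths came from GENCODE M21 (GRCm38), which matched 53274 of 53379 identifiers, and promoter windows from RefSeq (GRCm38.p6).

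KO was compared with WT by edgeR 4.0.16 (R 4.3.3): filterByExpr and TMM, then a quasi-likelihood F test of genotype alone (robust), with Benjamini-Hochberg adjustment over 20475 genes and a threshold of 0.05. Log2 differences are KO minus WT. The SE given with them was worked back from the test, as the size of the difference divided by the square root of F. CPM used TMM library sizes, and CPM per kb divides by the merged exons of all transcripts. Counting intervals are exact Poisson at 95%; they and floors cover counting error only, since no molecular identifiers are named. The scripts were tested on simulated data. Because no label ties a library to its own animal, the p-values speak only for the spread among these libraries, some of which may be technical. The common dispersion over all genes was 0.26, a coefficient of variation of 51.0%. No library was a copy of another: chi-square over its degrees of freedom was at least 35.8 for each pair.

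Alternatives were DESeq2 1.42.0, limma-voom (limma 3.58.1), DESeq2 size factors, 2 filters, a replicate block, the number in the table names as a term, and each library left out. The counts of list genes with lower means under each alternative were added after the data were seen. The members, gene lists and tests were chosen with earlier results of these data known. Besides the 10 members and Junb, the text names from each related list the 2 most abundant genes and those whose KO and WT libraries do not overlap, and the 3 genes most like the most abundant member of each family (MYC being a family of 1). Egr4, at 0 counts, was named after its value was seen.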

Additional observations from a re-analysis of the deposited data

How the results depend on the processing

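By edgeR 0 genes passed with every alternative filter, scaling, term and left-out library, and limma-voom also gave 0. DESeq2 on the same genes called 36, none of them among the 10. Unadjusted, 590 genes had a p under 0.05 in edgeR, 750 in limma-voom and 806 in DESeq2, and among the 10 the 4 below 0.05 in DESeq2 were Egr1, Egr2, Myc and Ier2. Of the 10 genes, 9 kept the direction of their mean under all 13 alternatives. The exception was Nr4a2, at 0.0058 with limma-voom and between -0.87 and 0.024 with 1 library left out. The count of genes with lower means, an alternative chosen after seeing the data, was 7 or 8 throughout. Libraries left out in turn gave -0.72 to -0.46 for Egr1, -1.03 to -0.50 for Egr2, -0.89 to -0.30 for Egr3, -0.54 to -0.090 for Nr4a1, -1.21 to -0.58 for Nr4a3, 0.20 to 0.35 for Myc, -0.60 to -0.26 for Ier2, 0.96 to 1.48 for Ier3 and -0.49 to -0.13 for Ier5. With the number in the table names as a term, Ier5 was at -0.56 (unadjusted p = 0.00857, adjusted p over 0.05). Without WT replicate 3 the median of the partner and repressor list was 0.056 and that of EGR targets -0.0087.

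Whether the replicate numbers pair the libraries is not known. Deviations of same-numbered KO and WT libraries from their group means correlated at -0.0948, 0.188 and 0.0354 across genes. The 0.188 of KO and WT replicate 2 was the highest of any pair. KO replicate 1 correlated best with WT replicate 3 (0.134), and KO replicate 3 with WT replicate 1 (0.0981). With so few libraries these values cannot settle a pairing. The fit with the replicate number as a block called 0 genes (712 unadjusted) and gave -0.57 for Egr1, 0.28 for Myc, 1.28 for Ier3 and -0.12 for Nr4a2. Counts were lowest for Nr4a2 and Ier3, with as few as 19 and 18 in a library.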
